A study of Mus musculus with 6 samples.

Results

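Predicted genes, RIKEN cDNA loci and small RNA genes of chromosome 1 were compared between control and Isl1 knock-in retinas. The loci were taken by name and level: a symbol that starts with Gm and a digit, with Mir or with Snor, or that ends in Rik, and a group value of at least 0.1 FPKM in 1 or both groups. FPKM counts sequenced fragments relative to transcript length and to library depth. Of 1140 complete rows of the deposited comparison, 183 had such a name and 50 of these reached the floor. A further 28 rows were above 0 but under the floor, and 105 rows were at 0 in both groups. The 2 group values that are compared below also chose the 50 loci, so their levels and differences are a description and no test was made on them.

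Mouse retinas of the C57BL/6 strain were collected at E15.5 (embryonic stage), with 3 libraries for each of 2 groups and a pool of 8 retinas behind each library. The controls were T2fx/+, which the submitters call wild type, and the other retinas were T2Isl1/+, with Isl1 knocked in at the Tbr2 (Eomes) locus. Both genotypes are heterozygous per the labels, so the knock-in is present on 1 allele and its expression depends on the Tbr2 locus. The authors combined the 3 libraries of each group into 1 value, so no replicate error can be given, and the labels do not say whether the pools shared litters.

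Isl1 is a LIM-homeodomain factor needed for retinal ganglion cell differentiation, and Tbr2, of the T-box family, acts in some ganglion cell types. Gm and Rik symbols are placeholders, given to genes predicted from the genome or found as full-length cDNA clones before a function was known. Many such loci are long non-coding RNAs (lncRNAs), which often start next to a protein-coding gene on the opposite strand and share its promoter region. MicroRNAs are cut from hairpins in longer transcripts, and small nucleolar RNAs (snoRNAs), which guide chemical modification of ribosomal RNA, are mostly cut from introns of host genes.

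MicroRNA and snoRNA loci were almost absent from the values. Of 45 rows whose name starts with Mir, 43 were at 0 in both groups and 2, Mir135b and Mir5103, were above the floor. All 7 rows whose name starts with Snor were at 0 in both groups. A mature sequence is shown of each of the 2 microRNAs with values (the 3p arm of Mir135b). The 5p arms of 4 rows of the miR-181 and miR-30 families at 0 are shown with them. The seed (bases 2 to 8 from the 5′ end) is in capitals. The sequences are annotation and not what a row was counted over. They are from RefSeq on GRCm38.p6, the assembly also called mm10. Its table matched 42 of the 45 microRNA rows by symbol. Of these, Mir1958 and Mir7652 are placed on chromosomes 4 and 11 there, while their rows are on chromosome 1.
mmu-miR-135b-3p: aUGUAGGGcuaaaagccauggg
mmu-miR-5103: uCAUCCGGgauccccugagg
mmu-miR-181a-5p: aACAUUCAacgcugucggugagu
mmu-miR-181b-5p: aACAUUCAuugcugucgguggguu
mmu-miR-30a-5p: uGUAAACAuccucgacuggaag
mmu-miR-30c-5p: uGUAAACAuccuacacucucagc
The 2 miR-181 sequences have the same seed, as have the 2 miR-30 sequences. The miR-135b-3p and miR-5103 sequences share a seed neither with each other nor with another mature sequence matched.

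The rows of Mir135b and Mir5103 had loci far longer than the hairpins. Mir135b had 0.537 FPKM in control retinas and 0.498 FPKM with the knock-in. Its hairpin has 97 bases (chromosome 1, 132198088 to 132198184, plus strand, mm10), while the locus of its row has 69119 bases (132188264 to 132257382). That locus is shared with 2 rows named Lemd1, a LEM domain gene on the same strand, and the higher of them had 2.53 FPKM in control retinas and 2.18 FPKM with the knock-in. Mir5103 had 0.818 FPKM in control retinas and 0.811 FPKM with the knock-in. For Mir5103 the hairpin has 79 bases (34433121 to 34433199, minus strand) and the locus 7446 bases (34426118 to 34433563), over which GENCODE M21 lists the long intergenic RNA Gm37233 (34427002 to 34433264, same strand). The locus of each row thus spans far more than the hairpin. Mir135b and the 2 Lemd1 rows carry the same locus, so its width does not show which bases were counted for Mir135b. Whether the values come from the hairpins or from longer transcripts was not tested, and the mature microRNAs were not measured on their own. Their log2 ratios of knock-in over control were -0.11 for Mir135b and -0.01 for Mir5103.

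Rows at 0 often shared a locus with a row that was well detected. All 7 snoRNA rows and 23 of the 45 microRNA rows shared a locus with another row of at least 1 FPKM, and 22 of those 23 were at 0. Snora75 and Snord82 lie in the locus of Ncl, which encodes the nucleolar protein nucleolin and had 103 FPKM in control retinas and 104 FPKM with the knock-in. Snora41 shares its locus with Eef1b2, a translation elongation factor gene at 213 and 237 FPKM. Snord70 and Snord11 share theirs with Nop58, a core protein of snoRNA particles, at 63.8 and 69.2 FPKM, and Snord47 with the snoRNA host Gas5, at 131 and 129 FPKM in control and knock-in. Among microRNAs, Mir26b shares the locus of Ctdsp1 (39.6 and 41.9 FPKM), Mir149 that of Gpc1 (60.0 and 64.0 FPKM) and Mir128-1 that of R3hdm1 (19.9 and 18.9 FPKM). The rows that share these loci were therefore measured in both groups while the small RNA rows were listed at 0. Shared loci were counted on either strand, and whether each small RNA lies inside the other transcript was not tested. The labels name total RNA and do not say whether it was selected by size or by poly(A) tail.

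Of the host genes and small RNA proteins with a test, 1 was called. Of 9 tested snoRNA host genes 0 were called, against 1.55% of all tested rows, with a median log2 ratio of 0.12, against 0.01 over all 646 tested rows. Of 8 tested genes of the microRNA host list 1 was called lower, against 1.39% of all tested rows. It was the collagen gene Col3a1, which went from 5.76 to 0.637 FPKM. That list was fixed by gene name, and no microRNA row here shared a locus with Col3a1. The same gene is on the mesenchyme and vessel list below. The median log2 ratio of those 8 was -0.06. Nop58 and Ncl were the 2 tested snoRNA particle proteins and Tsn, at 76.2 and 79.0 FPKM, the 1 tested gene of the microRNA machinery list. None of these 3 was called at a q-value under 0.05, against 1.55% of all tested rows.

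**Figure D1:**
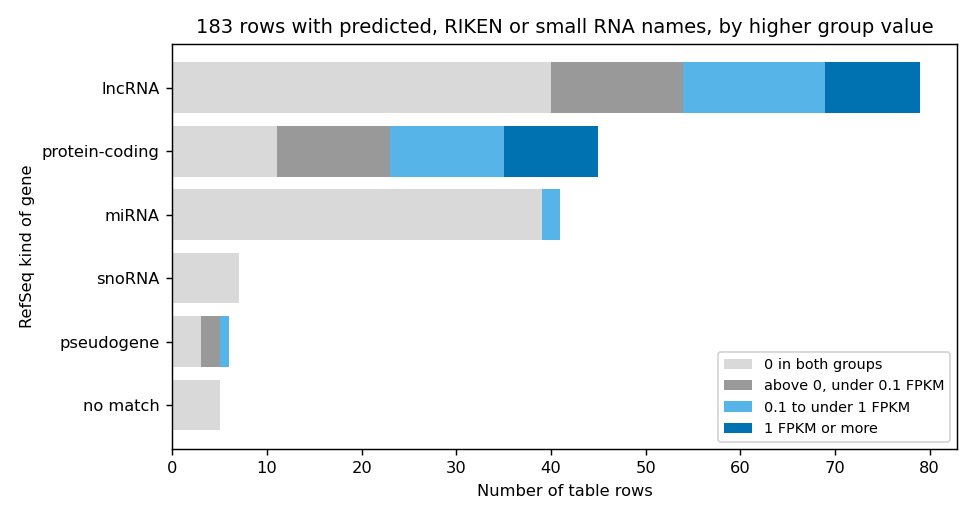
Bars give the number of table rows (x axis) for each RefSeq kind of gene (y axis) among the 183 rows with predicted, RIKEN or small RNA names, split by the higher of the 2 group values in FPKM. The microRNA and snoRNA bars are almost wholly rows at 0, while 22 of 45 protein-coding and 25 of 79 lncRNA rows reach 0.1 FPKM.

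By kind, the 50 loci were mostly lncRNAs and protein-coding genes whose placeholder names had remained in the authors' annotation. RefSeq gave 25 as lncRNA, 22 as protein-coding, 2 as microRNA and 1 as a pseudogene. All 50 were found in RefSeq and in GENCODE M21, and 8 now have another symbol. The protein-coding loci had a median of 0.787 FPKM in control retinas and 0.773 FPKM with the knock-in, and the lncRNA loci 0.504 and 0.516 FPKM. The longest annotated transcript had a median of 3132 bases in the protein-coding loci and 1751 bases in the lncRNA loci. Summed, the 50 loci had 182 FPKM in control retinas and 191 FPKM with the knock-in, or 0.877% and 0.917% of the FPKM of all 1140 rows.

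None of the loci was called as different between the genotypes. The authors had tested 27 of the 50, and 0 of these passed a q-value under 0.05 in the authors' deposited table, against 1.55% of all tested rows. By direction, 0 were called higher, against 0.155% of all tested rows, and 0 lower, against 1.39%. At an unadjusted p under 0.05 in that table the count was also 0, against 3.72% of all tested rows. The smallest p of a tested locus was 0.17, for 3110009E18Rik, in the authors' deposited table. The log2 ratios of the 27 ran from -0.42 to 0.37, with a median of 0.03, and 16 were above control and 11 below. All 27 differed by less than 1.5-fold, as did 96.7% of all tested rows, while 77.8% of the 27 and 88.9% of all tested rows were within 1.2-fold. Fewer cells of a type and less RNA per cell cannot be told apart in whole retinas.

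**Figure D2:**
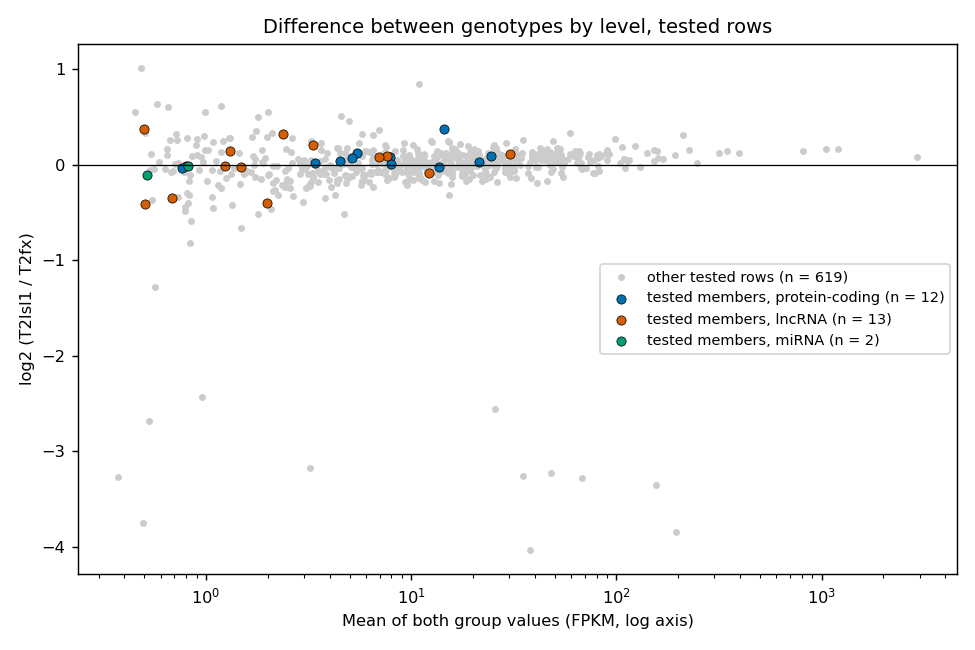
Each point is a tested row, with the mean of both group values (x axis, FPKM, log scale) and the log2 ratio of T2Isl1 over T2fx (y axis). The 27 loci (coloured by kind) lie between -0.42 and 0.37, and those far below 0 are other rows (grey).

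Protein-coding loci made up 8 of the 12 loci at 5 FPKM or more. The gene 2310009B15Rik (138851979 to 138856854, minus strand) had 23.6 FPKM in control retinas and 25.2 FPKM with the knock-in. 9430016H08Rik, now Maip1 (plus strand, GENCODE M21 gene 57406328 to 57417953), encodes a mitochondrial protein that interacts with the matrix AAA peptidase. Its values were 21.3 and 21.7 FPKM. 2310035C23Rik, now Relch (105663833 to 105755161, plus strand), encodes a protein of cholesterol transport from recycling endosomes, and had 13.8 and 13.5 FPKM. The 2 group values differed by 1.06-fold in 2310009B15Rik and by 1.02-fold in Maip1 and in Relch.

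Lower in level were 4 further protein-coding loci of at least 5 FPKM. 3110035E14Rik, now Vxn (GENCODE M21 gene 9601199 to 9627143, plus strand), encodes vexin, a protein linked to neural differentiation. Its values were 7.66 FPKM in control retinas and 8.09 FPKM with the knock-in. 1700025G04Rik had 7.97 and 8.01 FPKM, the smallest difference of the 12 loci at 5 FPKM or more, with a log2 ratio of 0.01. 5730559C18Rik, now Inava, a gene of innate immune signalling and cell junctions, had 5.21 and 5.67 FPKM. For 1700019D03Rik the values were 5.01 and 5.26 FPKM. All 4 knock-in values were above control, by log2 ratios of 0.08, 0.01, 0.12 and 0.07, and none was called. A130010J15Rik, below these in level, had 3.36 and 3.40 FPKM.

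3110009E18Rik (120121182 to 120188189, plus strand) had the largest ratio of the tested protein-coding loci. Its value was 12.6 FPKM in control retinas and 16.3 FPKM with the knock-in, a 1.30-fold difference that did not pass (p = 0.17 in the authors' deposited table). Its start lies 109 bases from that of Dbi, which runs the other way and encodes the acyl-CoA binding protein diazepam binding inhibitor. Dbi had 165 FPKM in control retinas and 172 FPKM with the knock-in. The log2 ratio was 0.37 for 3110009E18Rik and 0.06 for Dbi.

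Among lncRNA loci, 2810025M15Rik (GENCODE M21 gene 157412352 to 157420236, plus strand) was the most abundant of all 50. It was at rank 142 of 646 tested rows in control. The locus of its row is longer, at 285054 bases (157135183 to 157420236), and does not show which bases were counted. 2810025M15Rik had 29.1 FPKM in control retinas and 31.4 FPKM with the knock-in. GENCODE M21 lists it as a transcribed processed pseudogene, and its start overlaps that of Rasal2, a Ras GTPase-activating gene of the minus strand that is not analysed here. 1700034P13Rik, which overlaps the start of the deubiquitinase gene Vcpip1, had 12.6 and 11.9 FPKM. 2810408I11Rik had 7.40 and 7.89 FPKM, and A230020J21Rik had 6.75 and 7.12 FPKM. Their log2 ratios, in the order given, were 0.11, -0.08, 0.09 and 0.08.

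The less abundant lncRNA loci of at least 1 FPKM had log2 ratios from -0.41 to 0.31. 9130024F11Rik had 3.10 FPKM in control retinas and 3.57 FPKM with the knock-in. 1700001G17Rik had 2.11 and 2.63 FPKM, a log2 ratio of 0.31. 2900009J06Rik had 2.26 and 1.71 FPKM, a log2 ratio of -0.41. For 3110045C21Rik the values were 1.24 and 1.37 FPKM, and for C130036L24Rik they were 1.49 and 1.46 FPKM. The 7 tested loci under 1 FPKM included the lowest ratio of all 27, 9230116N13Rik at -0.42, and Gm5532 at 0.37. Of the 20 loci at 1 FPKM or more, 15 were above control, and of the 7 below it, 1 was. Neither count is a result on direction, since no locus was called and 54.6% of all 646 tested rows also lay above control.

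**Figure D3:**
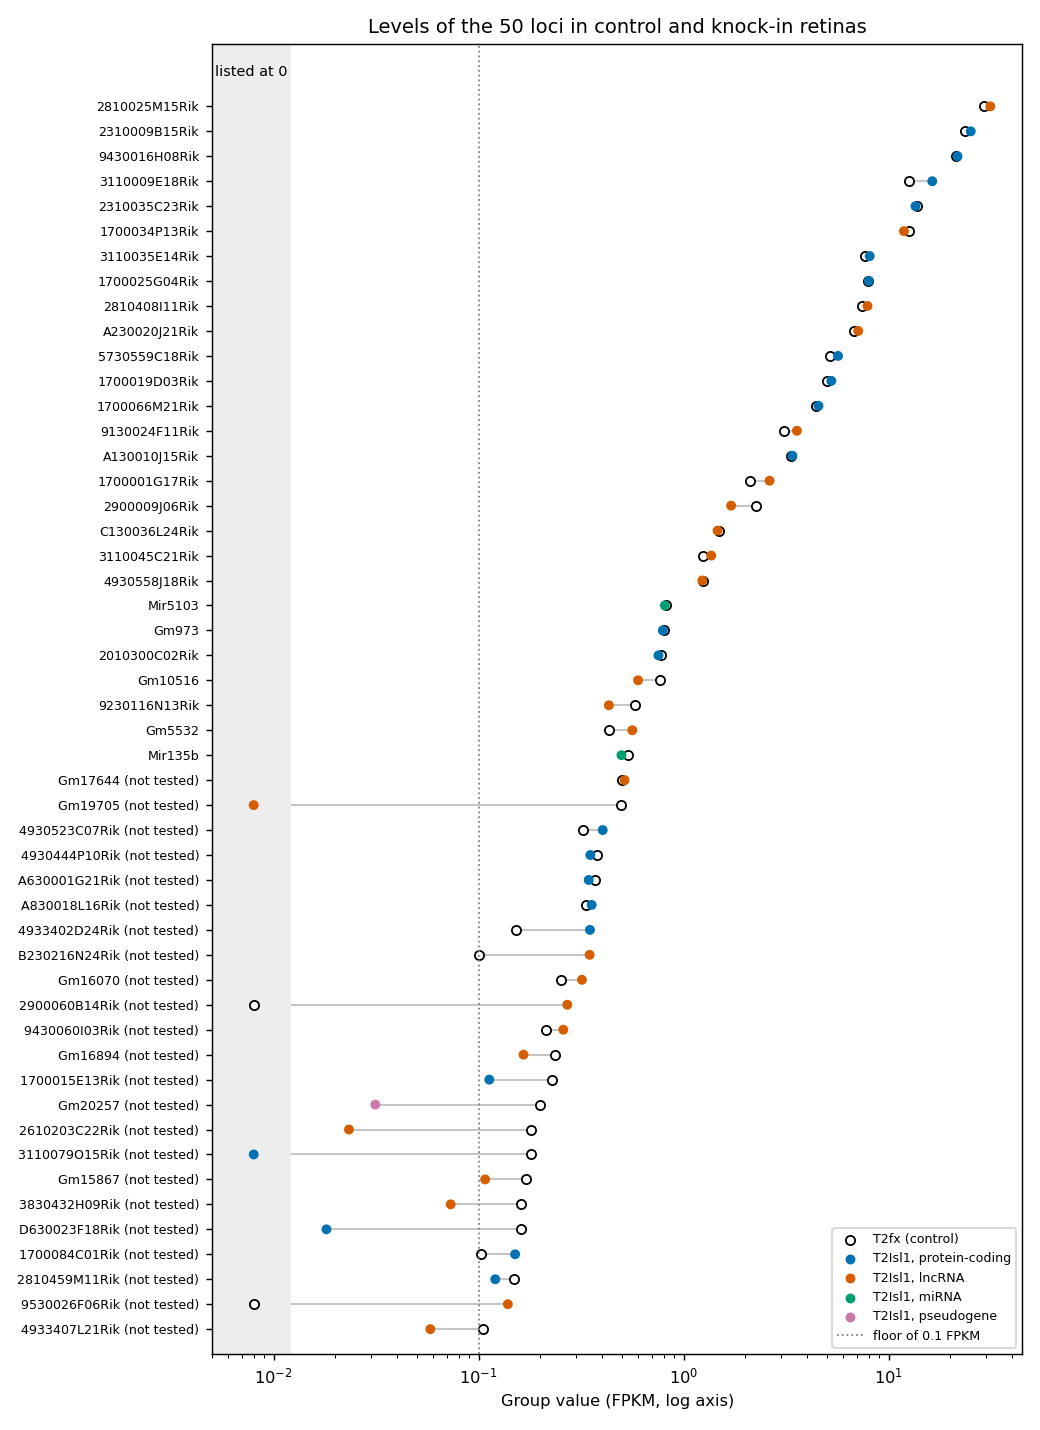
Values of the 50 loci in FPKM (x axis, log scale), ordered by the higher value, with open circles for T2fx and filled circles for T2Isl1, coloured by kind. The 2 circles of a locus lie close together in the upper part and farther apart among the lowest loci, none of which the authors tested. Loci listed at 0 in a group are placed in the grey band, and the dotted line is the floor of 0.1 FPKM.

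Many of the lncRNA loci began beside another gene. A start on the opposite strand within 1000 bases was annotated in GENCODE M21, which gives the distances below, for 18 of the 50 loci (36.0%), compared with 149 of 583 tested genes of other names (25.6%). It was present for 13 of 25 lncRNA loci and 5 of 22 protein-coding loci. By level, 9 of the 10 lncRNA loci at 1 FPKM or more had such a start, 4 of the 15 under 1 FPKM, and 4 of 39 lncRNA rows of the same names that were at 0 in both groups. The split at 1 FPKM was made after the values were seen. In 10 of the 18 the starts were apart, and in 8 the first parts of the genes overlapped.

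Promoter windows of 4 such loci are shown for the position of the 2 starts, and that of D630023F18Rik, which has no such start, as a window poor in CpG dinucleotides. These are in capitals. Each runs from 250 bases before to 50 after the start, which is base 251 by RefSeq, and is from its table (GRCm38.p6). The first 4 windows also contain the annotated start of the opposite gene.
1700066M21Rik, chr1:57377370-57377669, plus strand, opposite start of 4930558J18Rik at base 175: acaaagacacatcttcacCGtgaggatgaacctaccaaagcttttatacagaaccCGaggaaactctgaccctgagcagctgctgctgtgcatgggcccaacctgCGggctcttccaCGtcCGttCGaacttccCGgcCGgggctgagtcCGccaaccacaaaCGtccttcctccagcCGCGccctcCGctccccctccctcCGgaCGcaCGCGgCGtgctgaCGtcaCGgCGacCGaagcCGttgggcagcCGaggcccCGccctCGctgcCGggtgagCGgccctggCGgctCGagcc
3110009E18Rik, chr1:120120937-120121236, plus strand, opposite start of Dbi at base 142: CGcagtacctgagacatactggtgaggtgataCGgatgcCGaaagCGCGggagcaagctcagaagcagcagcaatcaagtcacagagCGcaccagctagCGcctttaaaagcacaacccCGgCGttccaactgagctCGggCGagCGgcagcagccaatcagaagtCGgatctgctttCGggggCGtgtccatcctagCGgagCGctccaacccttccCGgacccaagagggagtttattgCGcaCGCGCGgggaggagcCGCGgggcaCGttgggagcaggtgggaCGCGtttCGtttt
1700001G17Rik, chr1:33669574-33669873, plus strand, opposite start of Prim2 at base 222: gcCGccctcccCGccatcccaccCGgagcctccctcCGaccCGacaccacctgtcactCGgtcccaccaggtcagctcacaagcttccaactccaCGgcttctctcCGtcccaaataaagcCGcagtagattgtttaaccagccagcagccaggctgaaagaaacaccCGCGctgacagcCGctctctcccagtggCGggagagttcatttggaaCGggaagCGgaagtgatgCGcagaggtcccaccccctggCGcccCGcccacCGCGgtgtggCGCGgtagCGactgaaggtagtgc
C130036L24Rik, chr1:86359334-86359633, plus strand, opposite start of Ncl at base 67: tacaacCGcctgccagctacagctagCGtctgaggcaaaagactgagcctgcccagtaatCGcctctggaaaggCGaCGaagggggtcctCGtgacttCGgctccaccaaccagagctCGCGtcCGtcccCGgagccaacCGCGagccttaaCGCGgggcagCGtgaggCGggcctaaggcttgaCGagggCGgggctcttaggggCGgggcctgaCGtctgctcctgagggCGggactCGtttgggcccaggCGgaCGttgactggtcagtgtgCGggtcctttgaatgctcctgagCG
D630023F18Rik, chr1:65123165-65123464, minus strand: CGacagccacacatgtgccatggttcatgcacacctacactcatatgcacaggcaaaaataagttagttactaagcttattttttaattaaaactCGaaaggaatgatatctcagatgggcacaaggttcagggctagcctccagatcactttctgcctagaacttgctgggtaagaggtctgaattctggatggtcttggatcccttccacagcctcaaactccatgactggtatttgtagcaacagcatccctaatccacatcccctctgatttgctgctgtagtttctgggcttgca
The first 4 windows hold 30, 28, 23 and 27 CpG dinucleotides, and the window of D630023F18Rik holds 2. Over all windows found, 13 loci with an opposite start within 1000 bases had a median of 27 and a range of 14 to 42. The 20 loci without one had a median of 10.5 and a range of 2 to 49, so the ranges overlapped. Among these 20, 2010300C02Rik held 49 and 1700025G04Rik 33, more than any of the 4 windows shown. An opposite start was also more frequent among the more abundant lncRNA loci, so start and level were not separated in these CpG counts.

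CpG dinucleotides (the letters CG, which read the same on both strands) were more frequent before the more abundant loci. A promoter window was found for 33 of the 50 loci. The median was 26.5 per window for 16 of the 20 loci at 1 FPKM or more, 9 for 17 of the 30 under 1 FPKM, and 3.5 for 66 of the 133 rows under the floor. At least 10 were present in 15, 8 and 8 windows of these sets (93.8%, 47.1% and 12.1%). The same held for 84.7% of 503 tested genes of other names and 41.5% of all 2014 windows of chromosome 1. 1700019D03Rik was the exception at 1 FPKM or more, with 3 CpG dinucleotides and 5.01 FPKM in control. Its window (52992608 to 52992907) lies outside the locus of its row (52845041 to 52953650). The window is also away from the GENCODE M21 start at 53020179. Whether it is the promoter of the transcripts counted for 1700019D03Rik was not tested. A match of these letters is a description of the annotated window and not of a working site.

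**Figure D4:**
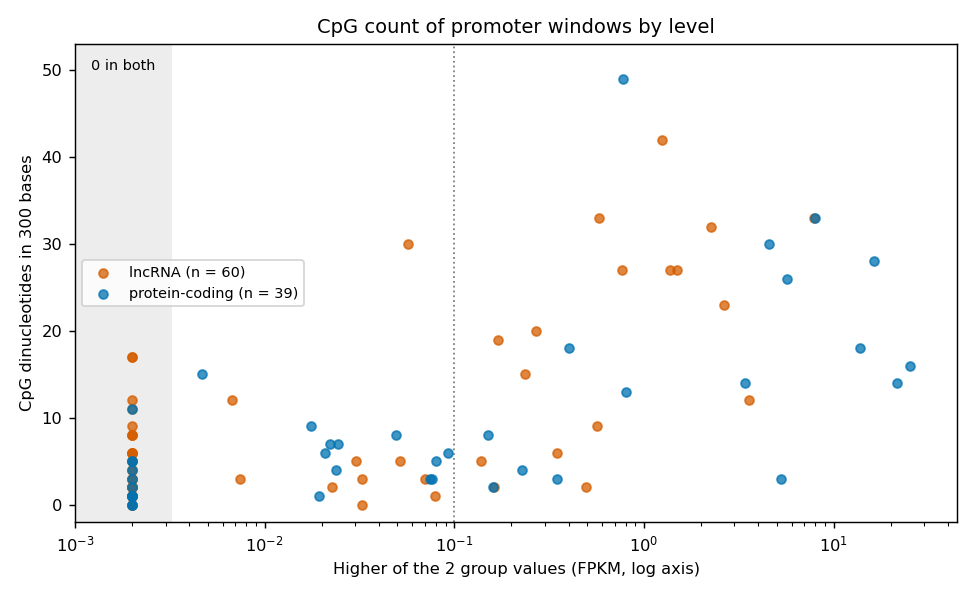
Each point is a row with a promoter window (33 of the 50 loci and 66 rows under the floor), with the higher group value (x axis, FPKM, log scale) and the number of CpG dinucleotides in its 300 bases (y axis), coloured by kind. All but 1 of the windows at 1 FPKM or more hold at least 10, and rows at 0 in both groups are in the grey band.

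Pairs of opposite genes were compared where both had been tested, which left 10 pairs. The signs of the 2 log2 ratios matched in 7 pairs and differed in 3, and no row of a pair had a p under 0.05 in the authors' deposited table. 1700066M21Rik and 4930558J18Rik, whose starts are 76 bases apart, are both among the 50 loci. They had 4.43 and 1.25 FPKM in control and 4.55 and 1.23 FPKM in knock-in retinas. Relch and Pign, a gene of GPI anchor synthesis, start 184 bases apart and had log2 ratios of -0.03 each.

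The levels of a lncRNA and its opposite gene were far apart in some pairs and close in others. C130036L24Rik starts 174 bases from Ncl and had 1.49 FPKM in control where Ncl had 103, a 69.2-fold difference in level. 1700001G17Rik starts 29 bases from Prim2, the large subunit gene of DNA primase, which had 23.5 and 24.6 FPKM. Ccnyl1, a cyclin-like gene, had 14.8 FPKM in control where 2810408I11Rik had 7.40, and Vcpip1 had 8.68 FPKM where 1700034P13Rik had 12.6. For the 2 tested lncRNA loci with the lowest ratios the opposite gene was close to 0 in ratio. 2900009J06Rik had -0.41 where the cyclin gene Ccnt2 had -0.02, and 9230116N13Rik had -0.42 where the helicase gene Ddx59 had 0.04. The difference between the 2 log2 ratios of a pair had a median of 0.08 and reached 0.46.

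**Figure D5:**
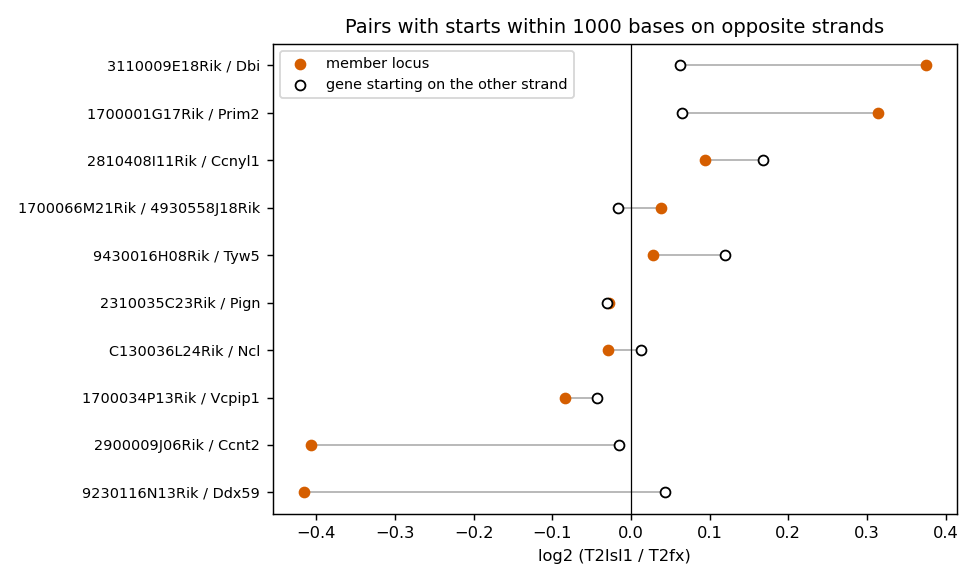
Each line joins the log2 ratio of T2Isl1 over T2fx (x axis) of a locus (filled) to that of the gene that starts within 1000 bases on the opposite strand (open), for the 10 pairs named on the y axis. The widest gap, 0.46, is that of 9230116N13Rik and Ddx59.

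Overlap with other genes was counted in the table and in the annotation. In the locus column 16 of the 50 loci shared bases with a row of another name, 11 of them lncRNA, 4 protein-coding and 1 microRNA. Genes with no row here, among them Rasal2, Flvcr1 and Rcor3, could not enter this count. The locus column can also be wider than the gene, and for 18 of the 50 it was over 2 times as long. C130036L24Rik, 1700019D03Rik and 4933402D24Rik are among the 16 but overlap no other gene body in GENCODE M21. By GENCODE gene bodies, an alternative chosen after seeing the data that counts genes of any name, 36 overlapped a gene and 32 (64.0%) overlapped a gene of the opposite strand, as did 48.2% of tested genes of other names. For 8 of the 16 the row with shared bases had over 5 times the level of the locus in control. 9430060I03Rik, for example, had 0.214 and 0.259 FPKM beside Capn10 at 23.4 FPKM in control, and B230216N24Rik had 0.101 and 0.348 FPKM within the locus of Pam, an enzyme gene of peptide amidation, at 20.3 FPKM in control. The labels do not say whether counting used strand, so reads of a low locus and of an overlapping gene cannot be told apart. Of 9 overlapping pairs with both rows tested, the log2 ratios had the same sign in 5. No locus overlapped a row that was called.

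The 23 untested loci had at most 0.516 FPKM, and their ratios rest on very low values. Of these, 10 were above control and 13 below, and 12 of the 19 with values above 0 in both groups were within 2-fold. Gm19705 had 0.496 FPKM in control and 3110079O15Rik had 0.179 FPKM, and both were listed at 0 in knock-in retinas. The second is now Snorc, a gene of a cartilage proteoglycan. In the opposite direction, 2900060B14Rik had 0.271 FPKM and 9530026F06Rik 0.139 FPKM in knock-in retinas, and both were listed at 0 in control. Gm17644, the highest untested locus, was nearly equal at 0.504 and 0.516 FPKM. Loci in this paragraph were named after their values were seen.

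D630023F18Rik (65105285 to 65123214, minus strand) had the lowest ratio of the 19 untested loci with both values above 0. It had 0.161 FPKM in control retinas and 0.0181 FPKM with the knock-in, a log2 ratio of -3.15. Its locus lies 1921 bases from the crystallin gene Cryga, which went from 364 to 25.3 FPKM. Cryga was called lower (q = 0.0116 in the authors' deposited table). GENCODE M21 lists a gene on the same strand, Gm28845 (65100619 to 65119558), that overlaps a part of Cryga and a part of D630023F18Rik. The lens list had 8 of 23 genes with a row, and 7 of 7 tested were called lower, against 1.39% of all tested rows. Summed, the lens list had 1038 FPKM in control retinas and 93.6 FPKM with the knock-in, and Lgsn was at 0 in both. The mesenchyme and vessel list, with 6 of 12 genes, summed to 38.1 and 29.3 FPKM with 1 called lower, the Col3a1 given above. The skeletal muscle list, with 9 of 14, summed to 4.24 and 1.47 FPKM with 1 called lower. Their part in the low values of D630023F18Rik, Snorc and Gm19705 was not tested. Retinal markers were present, with 7 of 33 genes in the table, all of them tested. None of the 7 was called at a q-value under 0.05, against 1.55% of all tested rows, so the count is near that share. The 7 retinal markers summed to 522 and 550 FPKM, most of it from Hes6, a neural progenitor factor, at 380 and 414 FPKM. The median log2 ratio of the 7 was -0.05, and Tfap2b, Lhx9, Crb1, Klf7 and Fzd5 were below control. Tfap2b, an amacrine cell factor, had 16.9 and 13.6 FPKM (p = 0.008, q = 0.807 in the authors' deposited table), and Lhx9 had 1.25 and 0.907 FPKM.

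At the floor the loci just inside were 4933407L21Rik, at 0.105 FPKM in control retinas and 0.0582 FPKM with the knock-in, 9530026F06Rik, at 0 and 0.139 FPKM, and 2810459M11Rik, at 0.148 and 0.121 FPKM. Just outside lay 1700019A02Rik, at 0 and 0.0928 FPKM, 1500015O10Rik, now Ecrg4, at 0.0802 and 0 FPKM, and 6030407O03Rik, at 0.0130 and 0.0791 FPKM. Rows on both sides of the floor thus included loci listed at 0 in 1 group. A row of joined names, A330023F24Rik with Mir29b-2 and Mir29c, had 0.0499 and 0.124 FPKM and was left out because the joined name does not end in Rik. The row that joins A730008H23Rik with Hjurp was left out likewise, at 57.2 and 52.3 FPKM.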

How the data were processed

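Total RNA of 6 retina libraries, 3 per group, was sequenced by the submitters. CASAVA, TopHat2 2.1.1, Cufflinks 2.1.1 and mm10 are named in the submitters' processing notes. No label names the gene annotation. The deposited values were read as FPKM, 1 per gene and group, from the tool the authors name. The deposited log2 ratio, p-value, q-value and test score of the authors are per the file headers, and the score was not used. Log2 ratios here divide T2Isl1 by T2fx with no pseudocount and matched those deposited to within 9.97e-06. Library depth is unknown.

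Rows cover chromosome 1, and minus-strand rows end at position 156719102; 1 incomplete row was left out. Starts were raised by 1 to count from 1. Overlap means at least 1 shared base in the locus column. Kinds of gene and symbols are from RefSeq (GRCm38.p6), gene bodies and starts from GENCODE M21. A locus was called changed at the authors' q-value under 0.05, and no new test was made.

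The loci and lists were chosen with earlier results of these data known. The rule for naming took called loci or those at p under 0.05 (none), microRNA loci, the 12 highest levels, the 8 highest and 8 lowest ratios among tested loci of at least 1 FPKM, loci over called genes (none) and 3 on each side of the floor. Other loci were named after their values were seen. Python 3.11.15 and pandas 2.3.3 were used, and the steps were tested on simulated data.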

Additional observations from a re-analysis of the deposited data

How the results depend on the processing

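The counts of called loci were 0 higher and 0 lower with an unadjusted p under 0.05, a q-value under 0.1, a floor of 1 FPKM, and joined or repeated names left out. The median log2 ratio of tested loci lay between 0.03 and 0.08 over 7 alternatives (floors of 1 and 5 FPKM, joined names, overlapping loci or microRNA loci left out, pseudocounts of 1 and 0.1). The share above control was 59.3% and became 83.3% at a floor of 5 FPKM (12 loci), and was 59.3% to 75% otherwise. Loci that shared bases with a row of another name numbered 16, and 16 with at least 100 shared bases. The latter setting could hardly change the count, since overlapping rows such as Mir135b and Lemd1 carry the same locus. The count was 29 within 5000 bases and 7 at a floor of 1 FPKM. It was 36 by GENCODE gene bodies of any name, a setting added after seeing the data. A pseudocount of 1 moved 4 of the 27 ratios by over 0.1 and cannot change a sign. No paired analysis was possible because libraries were merged into 1 value for each genotype before deposit. For the same reason no replicate could be left out.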
